A study of Caenorhabditis elegans with 32 samples.

Results

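Total mRNA of 2 Caenorhabditis elegans strains was compared: ΔLOTUS, which lacks the LOTUS domain of LOTR-1, and ΔLOTR-1, which carries an in-frame deletion of the whole gene. The comparison asks which mRNAs differ between animals that keep the remainder of the protein and animals that have lost it. Its members are the 4 lysate libraries of each strain, 8 of the 32 libraries of the study, and they were chosen by strain and fraction alone. ΔLOTUS is strain DUP217 with allele sam113, and ΔLOTR-1 is strain DUP207 with allele sam117. Both alleles sit in a lotr-1 locus tagged with 3xFLAG and GFP, as do the wild type (DUP167, sam85) and ΔTudor (DUP185, sam102), whose Tudor domain is deleted. All animals were day 1 adult hermaphrodites kept at 20 °C, and RNA came from whole animals. One portion of a lysate gave total mRNA, and polysomes were collected from another on a sucrose gradient. Each genotype is held by 1 strain, so the effect of an allele cannot be told apart from other sequence differences between the strains. The labels name biological replicates but describe no separate cultures, and the p-values therefore refer to the spread among these libraries, which may be technical in part.

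LOTR-1 is a protein of the perinuclear germ granules of the worm, which gather RNA and the proteins of small-RNA pathways outside the nuclear pores of germ cells. LOTUS domains are known from germ line proteins that bind Vasa-type RNA helicases, and Tudor domains bind methylated residues on partner proteins. In these germ cells, piRNAs and the 22G-RNAs that are made downstream of them guide Argonaute proteins to target transcripts.

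The 8 lysates held 31.4 to 40.2 M estimated counts. Vitellogenin (yolk) mRNAs took 5.06%, 6.37%, 4.33% and 1.98% of the counts in ΔLOTR-1 lysates 1 to 4 and 5.36%, 5.63%, 5.27% and 2.91% in ΔLOTUS lysates 1 to 4. Cuticle collagen mRNAs took 3.54%, 3.16%, 5.52% and 7.59% in ΔLOTR-1 and 2.79%, 3.01%, 5.18% and 7.14% in ΔLOTUS. In both strains the lysates numbered 3 and 4 were the ones rich in collagen mRNA, and lysate 4 was the poorest in yolk mRNA. The strains were compared within replicate numbers, because the comparison was defined that way. Levels are given as CPM, a gene's count scaled to the depth of its library, on library sizes scaled over all lysates, and a difference is the fitted log2 of ΔLOTUS over ΔLOTR-1, positive where ΔLOTUS was higher.

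The targeted gene was examined first. lotr-1 (WBGene00008385) stood at 88.1, 89.6, 49.2 and 31.8 CPM in ΔLOTR-1 lysates 1 to 4 and at 329, 304, 231 and 159 CPM in ΔLOTUS lysates 1 to 4. Every ΔLOTUS lysate was above every ΔLOTR-1 lysate. The means were 64.7 ± 28.8 CPM in ΔLOTR-1 and 256 ± 76.7 CPM in ΔLOTUS (SD, n = 4). The difference was 2.06 (SE 0.10, adjusted p = 0.00018, edgeR's quasi-likelihood test, Benjamini-Hochberg adjustment). By the same test without the replicate pairing, the difference was 1.99 and lotr-1 was not called (adjusted p = 0.441). The wild type measured 270 ± 117 CPM (SD, n = 4) and ΔTudor 255 ± 108 CPM (SD, n = 4), so the ΔLOTR-1 lysates were the low ones and the gene gives no check of the ΔLOTUS label. The transcript regions behind the remaining counts of ΔLOTR-1 are unknown here.

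Of 15323 genes tested, 96 differed between the strains at an adjusted p under 0.05 (0.627%), 44 higher in ΔLOTUS (0.287%) and 52 lower (0.339%). The lower genes differed by more, with a median absolute difference of 1.81 against 1.08 for the higher genes. Their median level was 6.53 CPM, against 21.3 CPM for the higher genes and 10.8 CPM for all genes tested, with no correction for transcript length. All 96 genes moved the same way in 4 of 4 replicate pairs. They were called from these same pairs, so this is no separate support for the calls. The 4 lysates of one strain lay wholly above those of the other for 60 of the 96 genes, against 1.14% of all genes tested. For the others the strains overlapped, as for rgs-9, a regulator of G protein signalling. rgs-9 measured 23.8, 17, 7.25 and 1.3 CPM in ΔLOTR-1 lysates 1 to 4 and 6.26, 6.03, 2.63 and 0.753 CPM in ΔLOTUS lysates 1 to 4, a difference of -1.49 (SE 0.18, adjusted p = 0.0112). It was named after its values were seen. A fit without the replicate pairing called 10 of the 96 genes: F40D4.13, F55B11.6, rnh-1.3, timm-17B.2, parn-1, cdh-7, Y49E10.37, WBGene00021606, T16G12.3 and H11L12.1. Fits without the libraries numbered 1, 2, 3 or 4 called 37, 55, 28 and 111 genes in all. Among these were 36, 48, 28 and 79 of the 96.

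**Figure D1:**
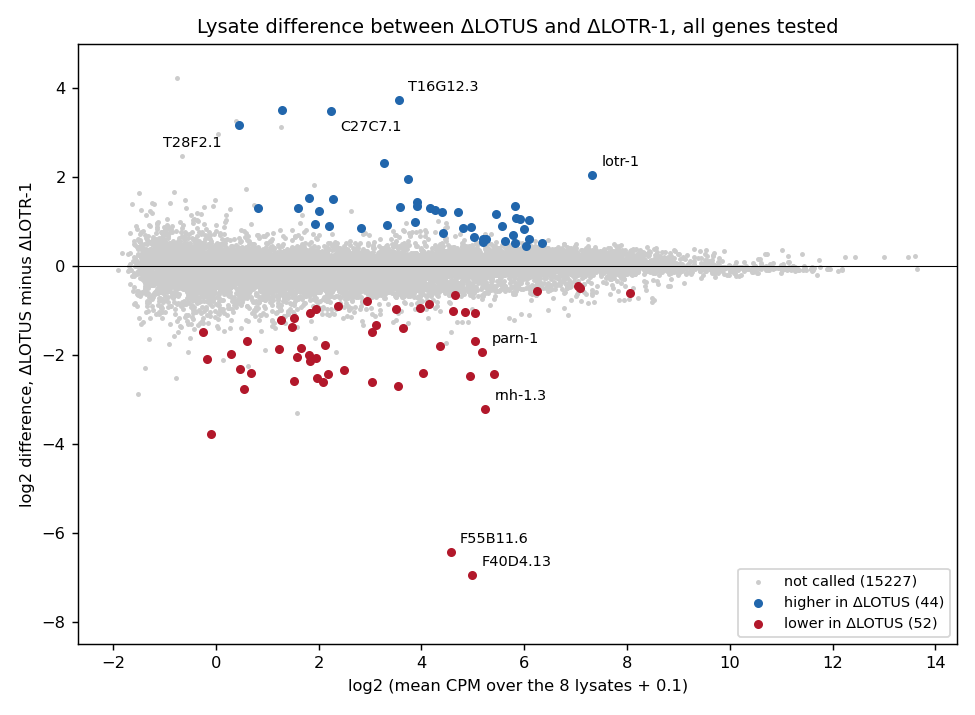
Fitted log2 difference (ΔLOTUS minus ΔLOTR-1) of the 15323 genes tested against the log2 of their mean CPM plus 0.1 over the 8 lysates; blue points mark the 44 genes higher in ΔLOTUS, red points the 52 lower and grey points the genes not called. F40D4.13 and F55B11.6 lie below -6, apart from the other called genes.

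The largest differences were in transcripts that were abundant in ΔLOTR-1 and near 0 in ΔLOTUS. F40D4.13 (WBGene00009572), a protein-coding gene, measured 50.8, 59.8, 70.8 and 70.7 CPM in ΔLOTR-1 lysates 1 to 4 and 0.414, 0.357, 0.574 and 0.656 CPM in ΔLOTUS lysates 1 to 4. The difference was -6.96 (SE 0.13, adjusted p = 4.45e-07). F55B11.6 measured 56.4, 61.7, 42.9 and 26.1 CPM in ΔLOTR-1 lysates and 0.276, 0.227, 0.711 and 0.753 CPM in ΔLOTUS lysates, a difference of -6.43 (SE 0.40, adjusted p = 0.000495). The strains did not overlap for either gene, and the lowest ΔLOTR-1 lysate was far above the highest ΔLOTUS lysate. F11D11.3 was called as well at lower levels, at 1.57 ± 1.22 CPM in ΔLOTR-1 and 0.113 ± 0.0964 CPM in ΔLOTUS (SD, n = 4), with a difference of -3.79 (SE 0.38, adjusted p = 0.00453).

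Among 22 RNase H and RNA exonuclease genes tested, 2 were called (all genes: 0.627% called), both lower, while 15 of the 22 had positive differences (median 0.05). rnh-1.3, an RNase H gene (RNase H cuts the RNA strand of RNA-DNA hybrids), measured 93.6, 87.4, 52.1 and 41.2 CPM in ΔLOTR-1 lysates 1 to 4 and 5.49, 5.77, 7.74 and 8.87 CPM in ΔLOTUS lysates 1 to 4. Its difference was -3.22 (SE 0.31, adjusted p = 0.00375). parn-1, whose exonuclease product matures piRNAs at their 3′ end, measured 66.2, 74.6, 52.4 and 38.6 CPM in ΔLOTR-1 lysates 1 to 4 and 14.4, 15.6, 15 and 13.6 CPM in ΔLOTUS lysates 1 to 4. Its difference was -1.94 (SE 0.13, adjusted p = 0.000762). The strains did not overlap for either gene, and the ΔLOTUS lysates stayed within 5.49 to 8.87 CPM for rnh-1.3 and 13.6 to 15.6 CPM for parn-1. The rnh-1.3 call was lost without the libraries numbered 3 (adjusted p = 0.0522).

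timm-17B.2, by its name a part of the translocase that moves proteins across the mitochondrial inner membrane, was also lower in ΔLOTUS. It measured 54.2, 68.3, 80.9 and 84.9 CPM in ΔLOTR-1 lysates 1 to 4 and 12.1, 12.9, 13.3 and 14.1 CPM in ΔLOTUS lysates 1 to 4, with a difference of -2.44 (SE 0.10, adjusted p = 9.41e-05). fbxb-41, an F-box gene (F-box proteins select substrates for ubiquitin ligases), measured 65.8, 75.3, 39.5 and 26.8 CPM in ΔLOTR-1 lysates and 11.3, 12.2, 9.13 and 4.3 CPM in ΔLOTUS lysates. Its difference was -2.48 (SE 0.11, adjusted p = 9.41e-05). cdh-7, a gene of the cadherin family of adhesion proteins, stood at 7.5 ± 1.35 CPM in ΔLOTR-1 and 1.39 ± 0.319 CPM in ΔLOTUS (SD, n = 4), a difference of -2.42 (SE 0.19, adjusted p = 0.00142).

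Several of the lower transcripts have no gene name or code for no protein. WBGene00044642, WBGene00269338 and WBGene00050977, which the table lists by identifier only, differed by -2.69 (SE 0.15), -2.61 (SE 0.20) and -2.60 (SE 0.18), at adjusted p of 0.000358, 0.00131 and 0.000739. Y39B6A.69 differed by -2.52 (SE 0.17, adjusted p = 0.000739). Of these 4, WBGene00044642 measured 26.3, 28.7, 16.1 and 8.95 CPM in ΔLOTR-1 lysates 1 to 4 and 3.84, 3.31, 3.28 and 1.48 CPM in ΔLOTUS lysates 1 to 4. Y49E10.37, a noncoding gene in RefSeq, fell from 4.74 ± 0.683 CPM in ΔLOTR-1 to 0.774 ± 0.0867 CPM in ΔLOTUS (SD, n = 4; difference -2.59, SE 0.19, adjusted p = 0.001). Of the 52 lower genes, 41 were protein-coding in RefSeq, 3 were not, and 8 had no match there. Rows with only an identifier were 10 of the 96 called genes (10.4%) and 3.33% of the genes tested.

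The other genes among the 15 lowest were Y53G8AM.7, F35F10.7 and Y43F8C.9. They differed by -2.76 (SE 0.24), -2.40 (SE 0.26) and -2.39 (SE 0.14), at adjusted p of 0.00219, 0.00671 and 0.000358. Y43F8C.9 shows how the pairing separates the strains: it measured 8.35, 9.32, 38.2 and 51.7 CPM in ΔLOTR-1 lysates 1 to 4 and 1.66, 1.33, 6.86 and 12.1 CPM in ΔLOTUS lysates 1 to 4. The ΔLOTUS lysate 4 was above the ΔLOTR-1 lysates 1 and 2, yet ΔLOTUS was lower at each number. Among lower genes named here after their values were seen, dep-1, a receptor-type tyrosine phosphatase that tempers growth factor signalling in the vulva, differed by -1.68 (SE 0.13, adjusted p = 0.00142). hmg-11, of the HMG family of chromatin proteins, differed by -1.03 (SE 0.16, adjusted p = 0.0418). Without the libraries numbered 3, Y53G8AM.7, F11D11.3 and F35F10.7 missed the threshold, at adjusted p of 0.0519, 0.0877 and 0.0929.

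**Figure D2:**
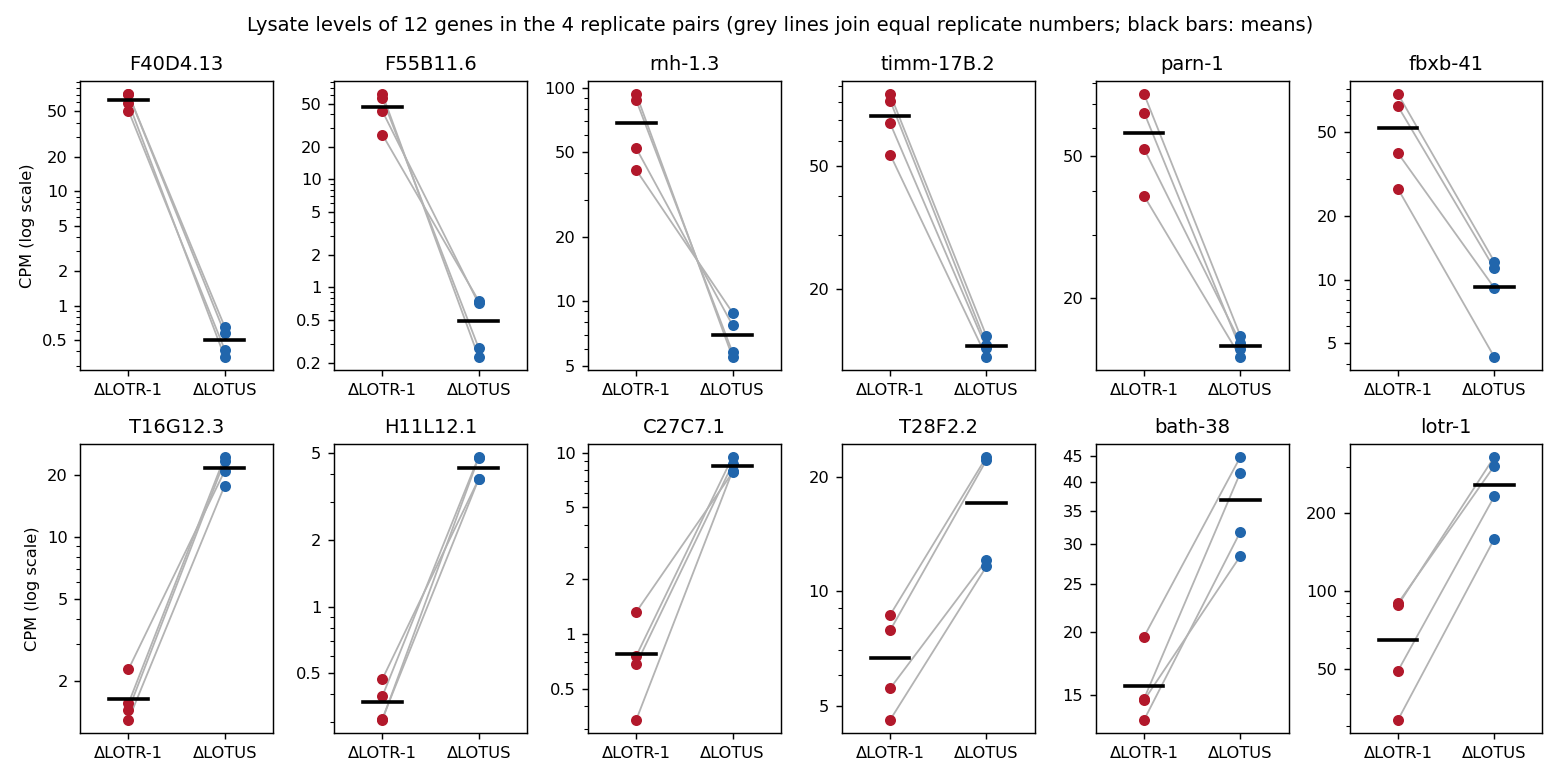
CPM on a log axis of 12 genes in the 4 ΔLOTR-1 lysates (red) and the 4 ΔLOTUS lysates (blue); grey lines join libraries of equal replicate number and black bars are means of 4. The top row shows 6 genes lower in ΔLOTUS and the bottom row 6 genes higher, and every grey line of a gene runs the same way. The genes shown were called from these same pairs.

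Among the 44 genes higher in ΔLOTUS, the 3 largest differences were in transcripts that were low in ΔLOTR-1. T16G12.3 measured 1.29, 2.27, 1.44 and 1.55 CPM in ΔLOTR-1 lysates 1 to 4 and 17.8, 20.9, 23.5 and 24.5 CPM in ΔLOTUS lysates 1 to 4. Its difference was 3.75 (SE 0.17, adjusted p = 9.41e-05). H11L12.1 stood at 0.37 ± 0.0774 CPM in ΔLOTR-1 and 4.28 ± 0.563 CPM in ΔLOTUS (SD, n = 4), a difference of 3.51 (SE 0.21, adjusted p = 0.000431). C27C7.1 measured 0.338, 0.683, 0.759 and 1.33 CPM in ΔLOTR-1 lysates and 7.92, 8.62, 9.46 and 7.77 CPM in ΔLOTUS lysates, a difference of 3.49 (SE 0.29, adjusted p = 0.00166). The strains did not overlap for any of the 3 genes. C27C7.1 was at adjusted p = 0.0519 without the libraries numbered 3.

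WBGene00008537 and C50E3.12 were higher in ΔLOTUS at every number but varied over replicates by more than the strains differed. WBGene00008537 measured 6.17, 4.78, 1.65 and 0.497 CPM in ΔLOTR-1 lysates 1 to 4 and 28.4, 24.2, 7.03 and 3.6 CPM in ΔLOTUS lysates 1 to 4, a difference of 2.32 (SE 0.15, adjusted p = 0.00054). C50E3.12 measured 10.4, 5.34, 2.96 and 0.94 CPM in ΔLOTR-1 lysates and 42.3, 33.9, 7.93 and 2.79 CPM in ΔLOTUS lysates, a difference of 1.97 (SE 0.21, adjusted p = 0.00679). In either strain both were highest in the library numbered 1 and lowest in that numbered 4. C50E3.12 was at adjusted p = 0.071 once the libraries numbered 1 were left out.

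Further down the higher genes, differences were smaller. mapk-15, which encodes a MAP kinase, measured 2.33, 1.43, 1.7 and 1.3 CPM in ΔLOTR-1 lysates 1 to 4 and 7.95, 5.35, 4.49 and 2.72 CPM in ΔLOTUS lysates 1 to 4, a difference of 1.54 (SE 0.19, adjusted p = 0.0112). gpa-1, a G protein alpha subunit, differed by 1.31 (SE 0.18, adjusted p = 0.026). nhr-22, the 1 called gene among 181 nuclear hormone receptors tested (all genes: 0.627% called), measured 13, 9.5, 9.27 and 8.71 CPM in ΔLOTR-1 lysates and 33.5, 32, 21.7 and 15.7 CPM in ΔLOTUS lysates, a difference of 1.3 (SE 0.15, adjusted p = 0.00987). For these 3 genes every ΔLOTUS lysate was above every ΔLOTR-1 lysate. gpa-1 lost its call in every fit that left out 1 pair, and mapk-15 and nhr-22 in some of them. Without the libraries numbered 1, 2 and 3 in turn, adjusted p for mapk-15 was 0.0961, 0.0571 and 0.145. Leaving out each number from 1 to 4 gave 0.152, 0.103, 0.149 and 0.0695 for gpa-1. For nhr-22, leaving out the libraries numbered 1 or 3 gave 0.0961 and 0.145.

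ceh-20 codes for a PBC-class homeodomain protein that partners with Hox proteins. It was the 1 called gene among 67 homeobox genes tested (all genes: 0.627% called). It measured 41.9, 39.8, 28.5 and 20 CPM in ΔLOTR-1 lysates 1 to 4 and 87.7, 82.9, 44.8 and 34.5 CPM in ΔLOTUS lysates 1 to 4, a difference of 0.90 (SE 0.10, adjusted p = 0.00679, and 0.071 without the libraries numbered 1). Both strains were above the others of the study, without a test here, since the wild type stood at 9.66 ± 1.64 CPM and ΔTudor at 9.89 ± 1.31 CPM (SD, n = 4). T05A12.4, Y37A1B.17 (dnbp-1 in RefSeq), C36B1.9 and F14B4.1 differed by 1.44 (SE 0.11), 1.36 (SE 0.14), 1.35 (SE 0.17) and 1.3 (SE 0.16), at adjusted p of 0.00142, 0.0044, 0.0135 and 0.0118. Y37A1B.17 lost its call without the libraries numbered 3 (adjusted p = 0.0766), and C36B1.9 and F14B4.1 lost theirs without those numbered 1, 2 or 3 (adjusted p up to 0.186 and 0.17).

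The next 7 higher genes were named after their values were seen and stand for no list; of the 20 genes of the nuclear RNAi and chromatin list, 0 were called. jmjc-1, a JmjC-domain gene, measured 9.34, 9.72, 10.4 and 16.3 CPM in ΔLOTR-1 lysates 1 to 4 and 26.7, 28.5, 24.6 and 28 CPM in ΔLOTUS lysates 1 to 4, a difference of 1.27 (SE 0.15, adjusted p = 0.00968). Smaller differences were called for the SET-domain genes set-10 (0.93, SE 0.11, adjusted p = 0.0118) and lin-59 (0.71, SE 0.08, adjusted p = 0.0112). The same held for rbr-2, an H3K4 demethylase (0.46, SE 0.08, adjusted p = 0.0486), and cec-4, a chromodomain protein that anchors heterochromatin at the nuclear periphery (0.62, SE 0.09, adjusted p = 0.026). epg-5, which acts in the fusion of autophagosomes with lysosomes, measured 43, 44.4, 34.1 and 25.1 CPM in ΔLOTR-1 lysates and 102, 78.3, 83 and 48.9 CPM in ΔLOTUS lysates, a difference of 1.08 (SE 0.09, adjusted p = 0.00219). atg-16.2, a homologue of the autophagy protein ATG16, differed by 1.23 (SE 0.10, adjusted p = 0.00142). The jmjc-1 and epg-5 levels did not overlap between the strains, while those of atg-16.2, set-10, lin-59, rbr-2 and cec-4 did. In the fit without the replicate pairing none of these 7 genes was called, and the lowest adjusted p among them was 0.394, for jmjc-1.

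Some called genes were direct neighbours in the annotation. Of 83 called genes placed in RefSeq order, 5 adjacent pairs had no protein-coding gene between them, and both members were higher in ΔLOTUS in each pair. How often such pairs arise in gene sets of this size was not tested. cah-6, jmjc-1, T28F2.2 and T28F2.1 form 1 run of 4 genes. cah-6, of the carbonic anhydrase family, measured 1.54, 1.86, 3.04 and 3.7 CPM in ΔLOTR-1 lysates 1 to 4 and 6.18, 7.97, 7.36 and 6.27 CPM in ΔLOTUS lysates 1 to 4, a difference of 1.51 (SE 0.24, adjusted p = 0.0442). T28F2.2 measured 8.66, 7.89, 5.55 and 4.59 CPM in ΔLOTR-1 lysates and 22.5, 22.1, 12.1 and 11.6 CPM in ΔLOTUS lysates, a difference of 1.34 (SE 0.12, adjusted p = 0.00219). T28F2.1 measured 0.0614, 0.124, 0.288 and 0.58 CPM in ΔLOTR-1 lysates and 2.4, 1.52, 2.43 and 2.72 CPM in ΔLOTUS lysates, a difference of 3.17 (SE 0.38, adjusted p = 0.0116). The strains did not overlap for any gene of the run. The next gene, ccb-1, differed by 0.77 (SE 0.15) and did not pass (adjusted p = 0.0858), and Y47G6A.32 on the other side differed by -0.25 (SE 0.32, adjusted p = 0.735). Among the other strains, the wild type and ΔTudor measured 7.56 ± 3.12 and 6.56 ± 2.23 CPM for T28F2.2, against 6.67 ± 1.92 CPM in ΔLOTR-1 and 17.1 ± 6.06 CPM in ΔLOTUS (SD, n = 4). Without the libraries numbered 1, 2 or 3, cah-6 missed the threshold at adjusted p of 0.208, 0.119 and 0.265, and T28F2.1 did so without those numbered 2 or 3, at 0.0571 and 0.174. The other adjacent pairs were nhr-22 with atg-16.2, and sqv-2 with ubc-26, which differed by 0.64 (SE 0.09, adjusted p = 0.0236) and 0.62 (SE 0.09, adjusted p = 0.0287).

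The lysates of the wild type and ΔTudor, which did not enter the comparison, show on which side the other strains stood. Each called gene was placed by whether the mean level of the other strain was nearer, on the log2 scale, to ΔLOTUS or to ΔLOTR-1. Of the 52 lower genes, the wild type was nearer to ΔLOTUS for 35 and nearer to ΔLOTR-1 for 17. Of the 44 higher genes, it was nearer to ΔLOTR-1 for 33 and nearer to ΔLOTUS for 11. In both directions together, the wild type was nearer to ΔLOTUS for 46 of the 96 called genes, and for 39.2% of all genes tested. The share over all genes was not split by direction. ΔTudor was nearer to ΔLOTUS for 33 of the 96 called genes and for 53.0% of all genes tested. These placements are descriptions of means and carry no test. They do not use the replicate pairs, so libraries with high levels weigh most. For col-111, placed with ΔLOTR-1, the wild-type lysates 1 to 4 measured 2.18, 1.61, 30.2 and 72.1 CPM. The ΔLOTUS lysates measured 2.35, 2.37, 10.6 and 23.6 CPM, so the wild type was above ΔLOTUS only at numbers 3 and 4.

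Both other strains had means nearer to ΔLOTUS for 21 of the lower genes. F55B11.6 belonged here, at 0.257 ± 0.158 CPM for the wild type and 0.48 ± 0.144 CPM for ΔTudor against 46.8 ± 15.9 CPM in ΔLOTR-1 (SD, n = 4). fbxb-41 did too, at 6.03 ± 4.1 CPM for the wild type and 7.05 ± 4.35 CPM for ΔTudor against 51.9 ± 22.5 CPM in ΔLOTR-1 (SD, n = 4). For 14 of the lower genes the wild type stood with ΔLOTUS and ΔTudor with ΔLOTR-1. These included F40D4.13, where the wild type had 0.554 ± 0.101 CPM and ΔTudor 54.4 ± 10.4 CPM, and rnh-1.3, where the wild type had 7.79 ± 1.07 CPM and ΔTudor 80 ± 28.5 CPM (SD, n = 4). parn-1 followed the same order, at 21 ± 0.369 CPM for the wild type and 68.6 ± 18.6 CPM for ΔTudor (SD, n = 4). For timm-17B.2, ΔTudor lay between ΔLOTUS and ΔLOTR-1 at 32 ± 5.49 CPM, and the wild type, at 8.11 ± 1.23 CPM, was below both (SD, n = 4).

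For 16 of the lower genes the means of both other strains were nearer to ΔLOTR-1. The distance varied widely among them: col-88 stood at 152 ± 202 CPM in ΔLOTR-1, 114 ± 153 CPM in ΔLOTUS, 188 ± 230 CPM for the wild type and 138 ± 172 CPM for ΔTudor (SD, n = 4), with libraries that overlapped between all strains. Y49E10.37 was further apart, at 4.14 ± 0.622 CPM for the wild type and 9.11 ± 2.22 CPM for ΔTudor against 0.774 ± 0.0867 CPM in ΔLOTUS (SD, n = 4). F42A9.6, named after its values were seen, was among them as well. It measured 35.3, 42, 29.7 and 20.5 CPM in ΔLOTR-1 lysates 1 to 4 and 9.46, 8.78, 7.93 and 9.35 CPM in ΔLOTUS lysates 1 to 4, with 33.4 ± 5.76 CPM for the wild type and 32.8 ± 8.95 CPM for ΔTudor (SD, n = 4; difference -1.79, SE 0.18, adjusted p = 0.00406). cdh-7 was the remaining lower gene. Its wild-type lysates 1 to 4 measured 0.727, 1.19, 2.82 and 10.8 CPM, so its placement nearer to ΔLOTR-1 rests on the library numbered 4, while ΔTudor, at 1.76 ± 1.33 CPM (SD, n = 4), was nearer to ΔLOTUS.

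Among the 44 higher genes, both other strains stood with ΔLOTR-1 for 29, among them nhr-22, bath-38, epg-5, mapk-15 and the run of 4 neighbours. nhr-22 measured 9.31 ± 1.32 CPM for the wild type and 11 ± 2.19 CPM for ΔTudor, against 10.1 ± 1.94 CPM in ΔLOTR-1 and 25.7 ± 8.49 CPM in ΔLOTUS (SD, n = 4). Both stood with ΔLOTUS for 7 genes: T16G12.3, H11L12.1, C27C7.1, WBGene00008537, lotr-1, fbxa-192 and inx-3. T16G12.3 measured 51.7 ± 8.89 CPM for the wild type and 37.7 ± 4.16 CPM for ΔTudor against 21.7 ± 3 CPM in ΔLOTUS (SD, n = 4). C27C7.1 measured 71.6 ± 25.7 CPM for the wild type and 19.9 ± 2.82 CPM for ΔTudor against 8.44 ± 0.773 CPM in ΔLOTUS (SD, n = 4). For T16G12.3 and C27C7.1 the ΔLOTUS mean therefore lay between ΔLOTR-1 and the other strains. C50E3.12 was 1 of 4 genes for which the wild type, at 20.6 ± 19.2 CPM, stood with ΔLOTUS and ΔTudor, at 4.03 ± 2.45 CPM, stood with ΔLOTR-1 (SD, n = 4).

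**Figure D3:**
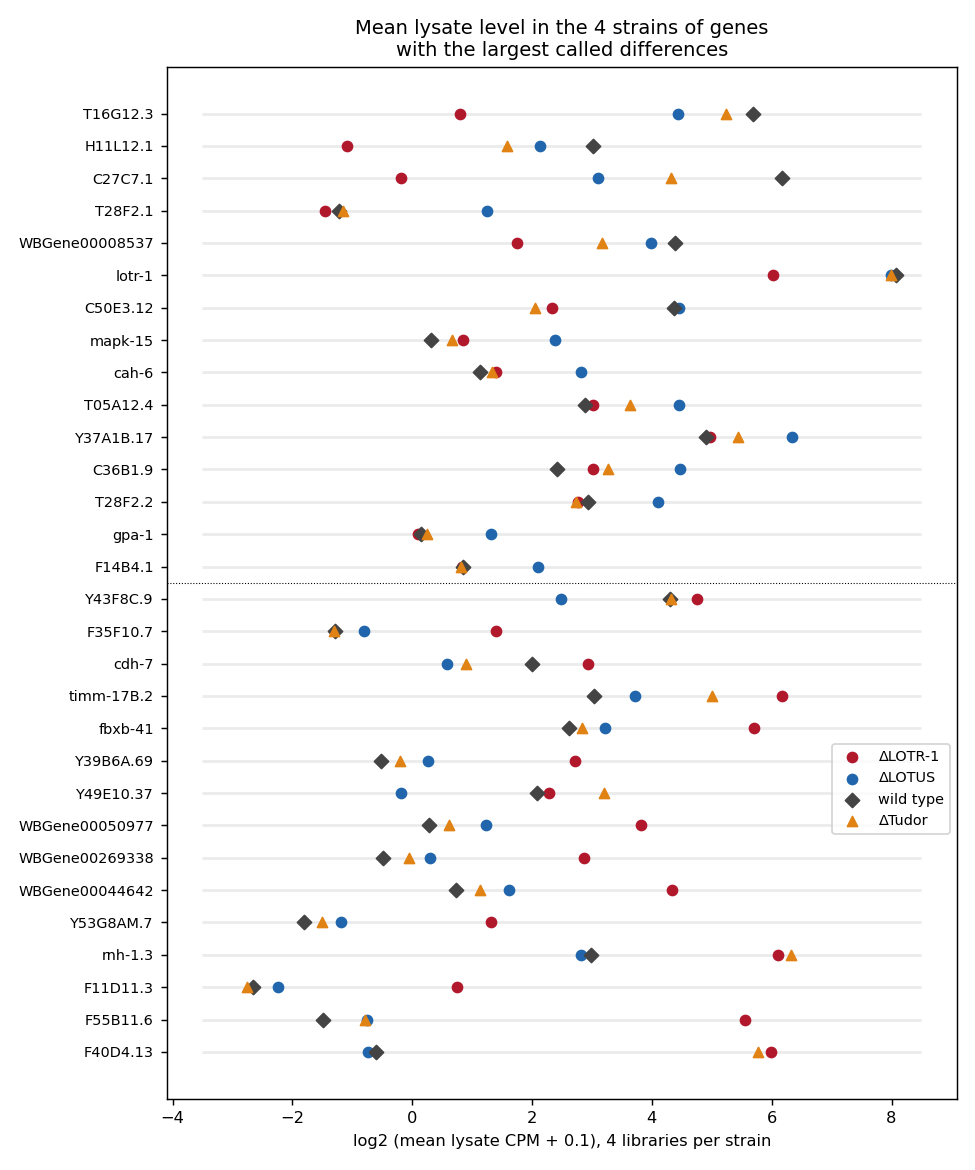
Mean lysate level of the 30 genes with the largest called differences, as log2 of the mean CPM of 4 libraries plus 0.1, in ΔLOTR-1 (red circles), ΔLOTUS (blue circles), the wild type (grey diamonds) and ΔTudor (orange triangles); genes above the dotted line were higher in ΔLOTUS. For F40D4.13, rnh-1.3 and timm-17B.2 the ΔTudor triangle lies nearer to ΔLOTR-1 and the wild type nearer to ΔLOTUS, while for F55B11.6 and fbxb-41 ΔLOTR-1 stands apart.

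Small-RNA genes were described by list, beside a median difference of -0.01 and a called share of 0.627% over all genes tested. Of 27 P and Z granule genes tested, 1 was called, lotr-1 itself, and the median difference was 0.13. Of 19 Argonaute genes tested, 1 was called, C04F12.1 (vsra-1 in RefSeq), and the median was 0.17. C04F12.1 measured 64.8, 64.8, 38.2 and 18.1 CPM in ΔLOTR-1 lysates 1 to 4 and 119.6, 105.7, 62.6 and 36.5 CPM in ΔLOTUS lysates 1 to 4, a difference of 0.83 (SE 0.08, adjusted p = 0.00381, and 0.0598 without the libraries numbered 1). Of 18 piRNA pathway genes tested, 1 was called, parn-1, which was lower while the list's median was 0.08.

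None of the 20 genes of 22G-RNA amplification, which include RNA-dependent RNA polymerases and mutator proteins, was called by edgeR's test. All 20 had positive differences with a median of 0.21, and 12 were at an unadjusted p under 0.05. Of 20 genes of nuclear RNAi and chromatin tested, 0 were called, 19 had positive differences with a median of 0.17, and 8 were at an unadjusted p under 0.05. Of 13 genes of the 26G-RNA (ERI) pathway, 0 were called, with a median of 0.18 and with 7 higher and 1 lower at an unadjusted p under 0.05. Over all genes tested, 2396 of 15323 reached that unadjusted level, 1358 higher and 1038 lower. Among 7 small-RNA target genes tested, K02E2.6 was the 1 called (all genes: 0.627% called). It measured 20, 15.5, 24.7 and 30.8 CPM in ΔLOTR-1 lysates 1 to 4 and 8.91, 9.79, 13.6 and 17.9 CPM in ΔLOTUS lysates 1 to 4. Its difference was -0.86 (SE 0.12, adjusted p = 0.0204), with 0.145 and 0.233 without the libraries numbered 1 or 3.

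Oocyte and meiotic lists differed in sign from the sperm lists, and no gene of them was called. All 33 oocyte and eggshell genes had positive differences (median 0.26, 11 at an unadjusted p under 0.05), as did 34 of 37 meiotic germ line genes (median 0.16, 12 at that level). Of 33 major sperm protein genes, 30 had negative differences (median -0.41, 8 at that level), as did 60 of 69 other sperm genes (median -0.34, 13 lower and 2 higher). In summed CPM, the ratio of ΔLOTUS to ΔLOTR-1 at numbers 1 to 4 was 1.17, 0.985, 1.05 and 1.65 for the oocyte list and 0.62, 0.43, 0.888 and 1.24 for the major sperm proteins. Neither of these ratios lay on 1 side of 1 in all 4 pairs. For the meiotic list the ratio was 1.13, 1.04, 1.06 and 1.26, above 1 in all 4 pairs. For the other sperm genes it was 0.82, 0.682, 0.883 and 1.15. In whole animals, fewer cells of a type and less RNA per cell cannot be told apart. Copies of major sperm protein genes are near-identical, so the values of single copies are uncertain. The part of germ cell content in the small-RNA medians was not tested.

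Cuticle collagens stood for the hypodermis. Of 144 collagen genes tested, 109 had negative differences (median -0.33), and 3 were called, all lower (all genes: 0.627% called). They were col-111 (-0.94, SE 0.14, adjusted p = 0.0307), col-88 (-0.45, SE 0.07, adjusted p = 0.0435) and col-162 (-0.50, SE 0.08, adjusted p = 0.0463). Their levels were far higher in the libraries numbered 3 and 4 of either strain: col-88 measured 5.68, 5.09, 164 and 433 CPM in ΔLOTR-1 lysates 1 to 4 and 4, 3.6, 121 and 327 CPM in ΔLOTUS lysates 1 to 4. Each of the 3 calls was lost without any 1 of the 4 pairs, at adjusted p from 0.0559 to 0.322. The summed collagen CPM of ΔLOTUS was below that of ΔLOTR-1 at all 4 numbers, with ratios of 0.816, 0.907, 0.943 and 0.979.

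F-box, BATH and MATH genes, a large family of ubiquitin ligase adaptors, had 4 called members among 265 tested (all genes: 0.627% called). The list median was 0.05. bath-38 measured 19.6, 14.8, 13.4 and 14.6 CPM in ΔLOTR-1 lysates 1 to 4 and 44.8, 41.7, 31.8 and 28.4 CPM in ΔLOTUS lysates 1 to 4, a difference of 1.23 (SE 0.11, adjusted p = 0.0024). fbxa-192 differed by 1.00 (SE 0.11, adjusted p = 0.00633) and fbxc-43 by -1.36 (SE 0.22, adjusted p = 0.0462). fbxb-41, described above, was the fourth. Without the libraries numbered 3, bath-38 was at adjusted p = 0.0522, fbxa-192 at 0.0766 and fbxc-43 at 0.269, and without those numbered 1, fbxa-192 was at 0.071 and fbxc-43 at 0.248. fbxc-43 was at 0.0896 without the libraries numbered 2.

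In 2 more lists the called genes were ones already described (all genes: 0.627% called). These were rnh-1.3 and parn-1 among 22 RNase H and exonuclease genes (median 0.05), and timm-17B.2 among 15 mitochondrial import genes (median -0.06). No gene was called among 6 yolk (median 0.21), 23 zygotic embryo (0.10), 29 intestine (-0.11), 26 muscle (-0.05) and 30 neuron genes (0.02). The same held for 86 ribosomal protein (-0.05), 72 respiratory chain (-0.07), 37 histone (0.09), 58 heat shock (0.01), 19 intracellular pathogen response (0.03), 183 immune effector (-0.08) and 145 detoxification genes (-0.15).

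**Figure D4:**
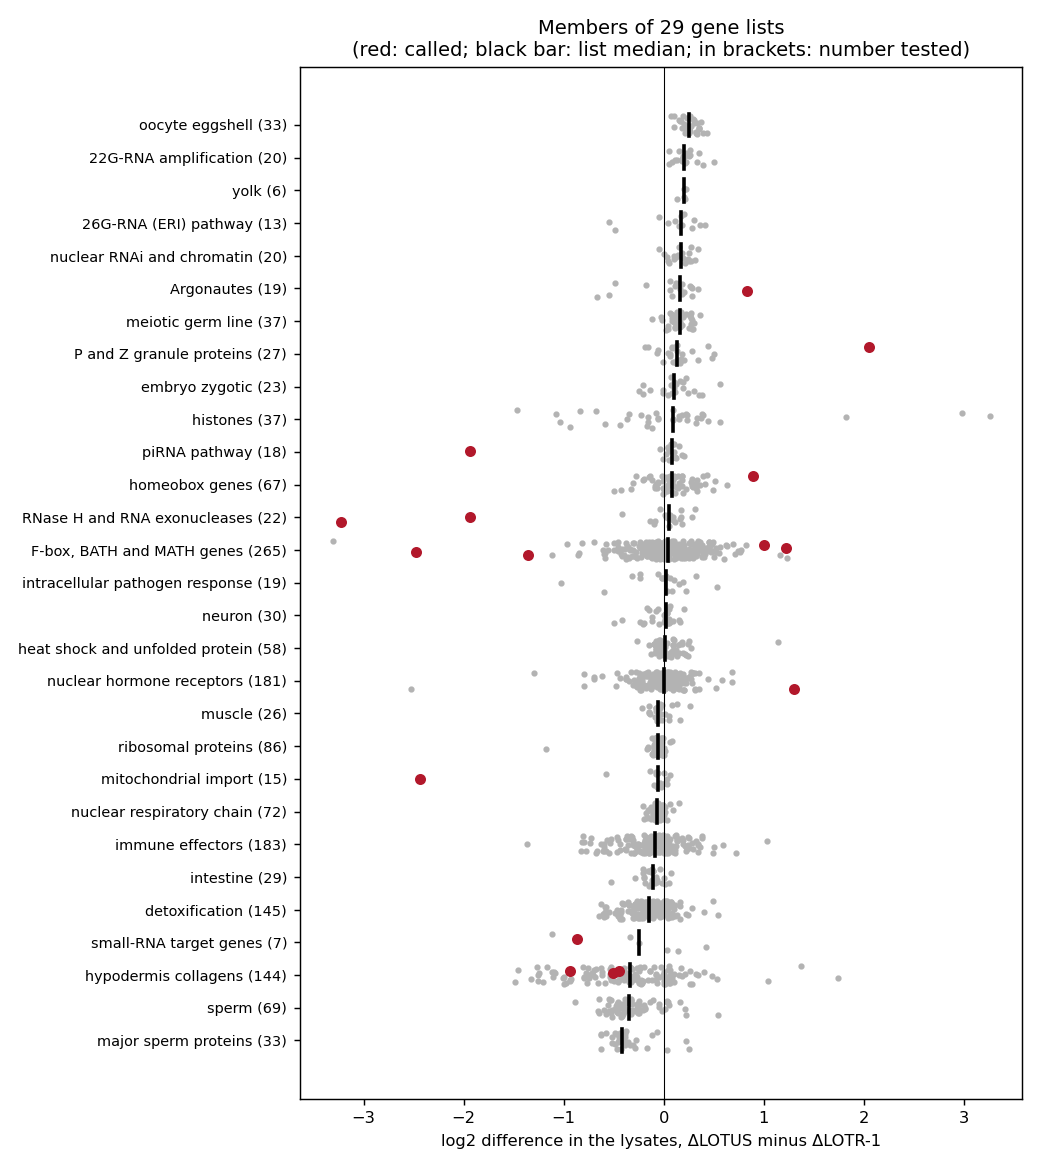
Fitted log2 difference (ΔLOTUS minus ΔLOTR-1) of each tested member of 29 gene lists; grey points were not called, red points were called, black bars are list medians and the number tested stands in brackets. Oocyte and 22G-RNA genes lie on the positive side and most sperm and collagen genes on the negative side, while the called genes lie far from the medians of most of their lists.

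The polysome libraries of the same strains, made from the same lysates, gave the comparison in a second fraction. Of 14799 genes tested there, 40 were called (0.27%), 10 higher in ΔLOTUS (0.0676%) and 30 lower (0.203%). Of the 96 genes called in the lysates, 94 were tested in polysomes, and all 94 differed in the same direction, against 76.6% of the 14573 genes tested in both fractions. Of the lysate calls, 35 were called in polysomes too, which is 36.5% of the lysate calls and 87.5% of the polysome calls. They comprised 25 of 50 lower genes and 10 of 44 higher genes tested in both. The libraries of the fractions share their lysates, so they are no independent replicates.

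F40D4.13 measured 34.5, 33.3, 52.9 and 54.6 CPM in ΔLOTR-1 polysomes 1 to 4 and 0.203, 0.1, 0.277 and 0.153 CPM in ΔLOTUS polysomes 1 to 4, a difference of -7.85 (SE 0.20, adjusted p = 1.74e-06). parn-1 differed by -2.64 (SE 0.25, adjusted p = 0.00376), rnh-1.3 by -3.24 (SE 0.36, adjusted p = 0.0117) and T16G12.3 by 3.10 (SE 0.24, adjusted p = 0.00117) in polysomes. Among the higher genes, epg-5 differed by 1.21 in polysomes (adjusted p = 0.0169) and T28F2.2 by 1.01 (adjusted p = 0.0175). nhr-22, at 0.57 (SE 0.15, adjusted p = 0.367), and bath-38, at 0.68 (SE 0.12, adjusted p = 0.113), did not pass there. Of the run that holds T28F2.2, cah-6, at 0.73 (SE 0.25, adjusted p = 0.494), and T28F2.1, at 1.82 (SE 0.40, adjusted p = 0.259), did not pass in polysomes.

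Whether the strain difference was unequal in the fractions was tested as an interaction of strain and fraction over the 16 libraries. Of 15833 genes tested, 8 passed (0.0505%), each with a polysome difference below its lysate difference. Fits without the libraries numbered 1, 2, 3 and 4 called 4, 5, 3 and 4 of these genes again. lotr-1 was the first of the 8. It measured 99.9, 106, 57 and 37.9 CPM in ΔLOTR-1 polysomes 1 to 4 and 110, 100.6, 56.9 and 52.5 CPM in ΔLOTUS polysomes 1 to 4, so the strains overlapped there while they were apart in the lysates. Its polysome difference was 0.14 (SE 0.12, adjusted p = 0.752), and the interaction was -1.93 (SE 0.15, adjusted p = 0.000149). The wild type and ΔTudor measured 69.2 ± 31.3 and 64.8 ± 34.3 CPM in polysomes (SD, n = 4), near the level of both deletion strains.

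For 6 of the other genes the difference was larger in polysomes than in lysates. fbxb-41 measured 95.6, 88.2, 54.4 and 33.2 CPM in ΔLOTR-1 polysomes 1 to 4 and 6.16, 6.86, 1.94 and 1.56 CPM in ΔLOTUS polysomes 1 to 4, a difference of -4.16 (SE 0.19) against -2.48 in the lysates, with an interaction of -1.71 (SE 0.25, adjusted p = 0.0247). Y39B6A.69 differed by -5.15 (SE 0.38) in polysomes, with an interaction of -2.66 (SE 0.34, adjusted p = 0.00808). WBGene00044642, WBGene00269338 and WBGene00050977 had interactions of -2.1 (SE 0.21), -2.45 (SE 0.25) and -2.15 (SE 0.23), each at adjusted p = 0.00158. Y45F10C.6 differed by -1.77 (SE 0.16) in lysates and -3.30 (SE 0.16) in polysomes, with an interaction of -1.54 (SE 0.20, adjusted p = 0.0112).

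**Figure D5:**
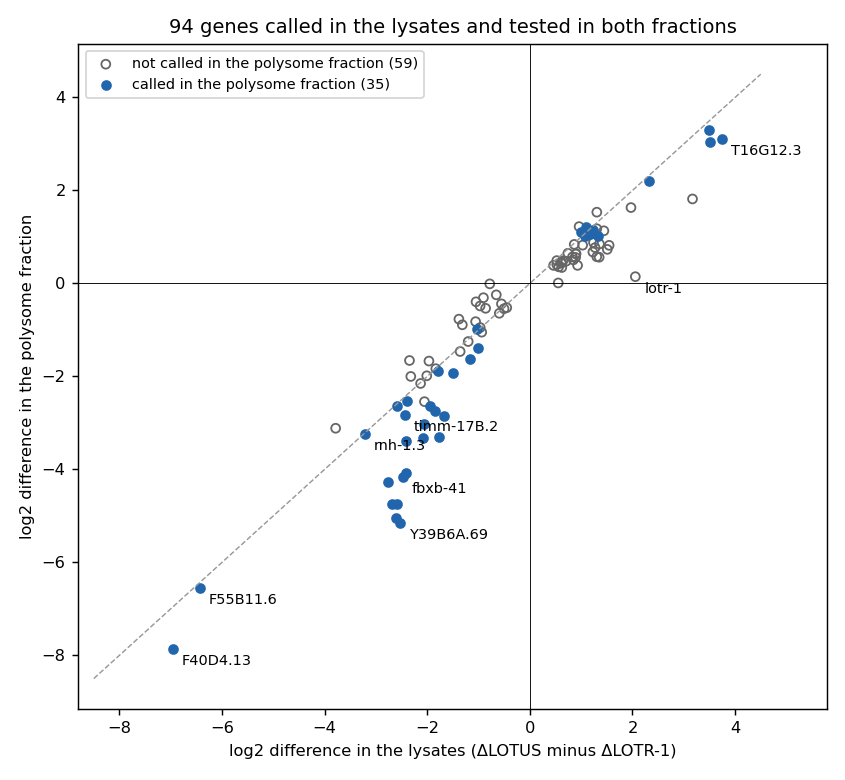
Log2 difference (ΔLOTUS minus ΔLOTR-1) in the polysome fraction against that in the lysates for the 94 genes called in the lysates and tested in both; filled points were also called in polysomes (35), open circles were not (59), and the dashed line marks equal differences. All points lie in the quadrants of equal sign; lotr-1 lies close to 0 on the polysome axis, and fbxb-41 and Y39B6A.69 lie below the dashed line.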

How the data were processed

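Per the labels' protocols, stranded libraries were made from polyadenylated RNA. The deposited expected counts are estimated counts per gene from Salmon; the submitters' processing notes name Salmon and DESeq2 without versions, and the build, the annotation and the use of strand in counting were not given in the sources used here. Of the positive values, 15.3% were not whole, and all were rounded. All 46926 rows named a gene, 2766 by identifier only. A second deposited table, replicate-adjusted whole numbers handled as a score because the authors' adjustment is not described here, served as an alternative input. Every column of values belonged to a labelled sample. Near-identical or overlapping genes can share reads.

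The 8 lysate libraries were fitted alone (R 4.3.3, edgeR 4.0.16) after filterByExpr and TMM scaling, with strain and replicate number as terms, by edgeR's quasi-likelihood test. Genes were called at a Benjamini-Hochberg adjusted p under 0.05 over all genes tested. A standard error is the absolute log2 difference over the square root of F. The polysome libraries were fitted likewise, and the interaction over 16 libraries had each lysate as block. CPM values are on TMM sizes over the 16 libraries of a fraction, and levels between strains were set side by side on log2 of CPM plus 0.1.

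Replicate numbers come from the labels. They were taken as pairs because the comparison was defined that way, and correlations served as a check. Over 7839 genes, deviations of same-numbered lysates of both strains correlated with r of 0.962, 0.942, 0.951 and 0.955. For other numbers r was at most 0.913.

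Named genes were lotr-1, the 15 highest and 15 lowest called genes with at least 1 CPM in a strain and equal direction in all pairs, up to 4 called members per list, and up to 5 interaction genes; others are said to be chosen after their values were seen. Members, lists and rules were chosen with earlier results of these data known. RefSeq annotation of WBcel235 matched 14739 of the 15323 genes tested and gave names, gene types and neighbours only. On simulated counts with 15323 genes, the lysate test called 91% of genes changed by 1 and 100% of those changed by 2 (log2), and 6.83% of its calls were false. On 14799 genes the polysome test called 83% and 100%, with 8.96% of calls false, and on 15833 genes the interaction test called 23% and 83%, with 0.935% false. Changes were planted only in genes above a floor on the mean count, so the recovered shares do not cover genes below it. The simulated spread was estimated from these same libraries. Alternatives were no replicate block, RLE size factors, DESeq2 1.42.0, other filters, fits with more lysates, limma 3.58.1 on the replicate-adjusted table, and leaving out each pair. The deposited sample sheet was left unused.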

Additional observations from a re-analysis of the deposited data

Results flagged for a closer look

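The strain difference was unequal in polysomes and lysates for 8 genes by the test of the difference itself (edgeR's quasi-likelihood test of the interaction, Benjamini-Hochberg adjustment over 15833 genes). These were lotr-1 (adjusted p = 0.000149), WBGene00044642, WBGene00269338 and WBGene00050977 (each adjusted p = 0.00158), nspc-2 (adjusted p = 0.00686), Y39B6A.69 (adjusted p = 0.00808), Y45F10C.6 (adjusted p = 0.0112) and fbxb-41 (adjusted p = 0.0247). All but nspc-2 are described above. nspc-2 was at 0 CPM in all ΔLOTR-1 lysates and in all ΔLOTUS polysomes, and measured 2.37, 0, 0 and 1.21 CPM in ΔLOTUS lysates 1 to 4 and 5.78, 0, 0 and 3.51 CPM in ΔLOTR-1 polysomes 1 to 4. No fold is given for it, since groups are at 0, and members of its family are similar enough to share reads. The interaction test called 0 genes without the lysate as block, with 58 genes at an unadjusted p under 0.05, against 171 with it. In none of the 84 groups of 4 lysates of named genes did 1 library stand apart from the other 3 by Dixon's test.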

How the results depend on the processing

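All 96 called genes kept their sign in every alternative that tested them. Without the replicate block, the lysate comparison called 10 genes, the polysome comparison 18 and the interaction 0. DESeq2 called 383 in lysates (231 higher and 152 lower, 60.3% higher against 45.8% with edgeR) and 130 in polysomes. In lysates it kept 86 of the 96, but it gave an adjusted p to 11461 genes only, against 15323 with edgeR. On simulated lysates, 13.6% of DESeq2's calls were false, against 6.83% for edgeR. Without a filter edgeR called 160 genes in lysates and 72 in polysomes. Fits with all 16 lysates, with the 12 mutant lysates, and with the replicate-adjusted table called 217, 212 and 226 (the last 81 higher and 145 lower, 35.8% higher). RLE factors and a 1 CPM filter moved the count by less than 1.5 times. Leaving out each pair gave 28 to 111 lysate calls, 16 to 38 polysome calls and 3 to 7 interaction calls. The fits without the libraries numbered 1, 2, 3 and 4 kept 4, 5, 3 and 4 of the 8 interaction calls. Those without numbers 2 and 4 also called 1 and 2 genes in the other direction. The lowest count came without the libraries numbered 3 in each comparison, and the polysome count was 19 without those numbered 1. Of the 96 calls, 25 held in all 4 of these fits and 81 in at least 1. Of the 41 named genes tested in lysates, 18 held in all 4. The causes were not tested, except that leaving out a pair leaves fewer samples. With depths of 31.4 to 40.2 M counts, transcripts near 0 CPM rest on few reads, and 12 of the 52 lower genes had a mean under 1 CPM in ΔLOTUS.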

Other observations

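The polysome comparison called 5 genes that were not called in the lysates, all lower in ΔLOTUS. his-53, a histone gene, measured 1.91, 2.21, 5.52 and 5.83 CPM in ΔLOTR-1 polysomes 1 to 4 and 0 CPM in all ΔLOTUS polysomes (adjusted p = 0.0055, edgeR's quasi-likelihood test); histone copies are near-identical and share reads, and it was not tested in the lysates. WBGene00020262 measured 9.08, 9.8, 7.47 and 6.73 CPM in ΔLOTR-1 polysomes and 2.71, 2.58, 2.72 and 3.33 CPM in ΔLOTUS polysomes, a difference of -1.52 (SE 0.19, adjusted p = 0.019), while its lysate difference was -0.32 (SE 0.13, adjusted p = 0.302). F57A10.2, Y95B8A.4 and F36D1.9 differed by -2.36 (SE 0.33), -1.54 (SE 0.21) and -1.18 (SE 0.15) in polysomes, at adjusted p of 0.0312, 0.031 and 0.0234, and by -1.09, -0.96 and -0.83 in lysates, at adjusted p of 0.144, 0.0987 and 0.0932. None of these 5 genes passed the test of the interaction. They were named after their values were seen.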
